A study of Mus musculus with 32 samples.

Results

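Spink8, Klk1 and 7 genes of the Klk1b cluster (Klk1b1, Klk1b3, Klk1b4, Klk1b5, Klk1b8, Klk1b22 and Klk1b24) were described in mouse parathyroid cells. These are 9 of the 35458 genes in the tables. They were chosen on their read counts in grafted cells against those in the other 7 experiments, so their graft levels are given as a description with no test. Reads were summed over all Ensembl transcripts of a gene in each library.

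The libraries are bulk RNA-seq of 10 to 20 parathyroid cells picked by hand for tdTomato fluorescence, with 4 biological replicates in each of 8 experiments (32 libraries). Control cells came from mice of the strain C57BL/6-Pthtm1(P2A-tdTomato)/+, in which the red reporter is read from the Pth gene, in experiment 1 (male, 8 weeks) and experiment 2 (female, 11 weeks). Mouse-host cells were ESC-derived and came from Gcm2-/- mice on a BDF1B6 background that had been complemented with Pth-tdTomato ESCs, at 9 weeks (experiments 1 to 3 female, experiment 4 male). Rat-host cells came from the same kind of ESCs in Gcm2-/- Wistar rats (neonates, sex unknown), and grafted cells were ESC-derived cells from Gcm2-/- mice (male, 12 weeks). Every library carries the reporter and was picked on it. The labels name neither the graft site nor the animals behind the replicates, so a p-value here covers only the variation among these libraries, part of which may be technical.

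Control experiment 1 held 29471254 to 32264864 reads per library, and the other 28 libraries held 9470744 to 15098391. The parathyroid genes Pth, Chga, Casr and Gcm2 were present in all 32 libraries, with Pth at 42174 to 136845 CPM (read counts scaled to a common library size). Reads of the Y-linked genes Ddx3y and Eif2s3y numbered 1891 to 2802 per library in control experiment 1. They numbered 0 or 1 in each of the other 28 libraries, including the male-labelled mouse-host experiment 4 and graft. Fibroblast markers (8 genes) summed to 3249 CPM in control experiment 2 replicate 3, to 2399 CPM in mouse-host experiment 2 replicate 4 and to 415.2 CPM in graft replicate 1, against at most 88.7 CPM in the other graft libraries. In bulk samples, fewer cells of a type and less RNA per cell cannot be told apart.

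Tissue kallikreins are secreted serine proteases of the trypsin fold. Klk1, the tissue kallikrein proper, releases kinins from kininogens. In the mouse the gene stands at the end of a cluster of Klk1b copies, which are best known from the androgen-dependent granular duct cells of the submandibular gland. Klk1b3 and Klk1b4 encode subunits of a secreted protein complex of that gland, the latter without protease activity, and Klk1b22, Klk1b9 and Klk1b26 encode proteins named for binding epidermal growth factor. Spink8 belongs to the Kazal family of serine protease inhibitors, whose members present a bait loop to the protease.

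Because the Klk1b genes are close copies, the bases that tell them apart decide to which gene a read is given. The coding sequences of the 8 kallikrein genes among the 9 were 81.7% (Klk1b1 and Klk1b8) to 95.1% (Klk1 and Klk1b5) identical over 28 pairs. Between 27.8% (Klk1b5) and 58.4% (Klk1b24) of the 31-base words of a gene's longest coding transcript also occurred in another gene of the Klk1 family. The stretch below is the 45-base window within exon 2 that varies most among 10 of these genes, with 26 variable positions. It is taken from GENCODE M21 transcripts (GRCm38, chromosome 7, plus strand), and capitals mark bases that differ from Klk1b22, which lies there at chr7:44114775-44114819.
Klk1b22: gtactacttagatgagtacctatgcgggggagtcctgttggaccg
Klk1b9: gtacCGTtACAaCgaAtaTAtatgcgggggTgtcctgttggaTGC
Klk1b26: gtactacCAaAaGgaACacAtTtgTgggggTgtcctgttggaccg
Klk1b4: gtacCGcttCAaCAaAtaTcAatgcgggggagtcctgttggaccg
Klk1b3: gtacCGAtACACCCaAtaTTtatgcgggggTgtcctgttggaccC
Klk1b1: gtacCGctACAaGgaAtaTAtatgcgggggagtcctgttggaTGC
Klk1b8: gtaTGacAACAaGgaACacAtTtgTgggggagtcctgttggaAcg
Klk1b24: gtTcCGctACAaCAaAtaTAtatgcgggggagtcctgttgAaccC
Klk1b5: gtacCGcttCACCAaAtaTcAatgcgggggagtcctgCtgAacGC
Klk1: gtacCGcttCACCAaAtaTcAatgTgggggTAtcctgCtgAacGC
In this window the other 9 genes differed from Klk1b22 at 9 (Klk1b4) to 17 (Klk1) positions. Of the 307 values above 0 over the family and the 32 libraries, 271 (88.3%) were whole numbers within 0.0015 of a read. A fractional value means that Salmon split reads between similar transcripts. Most values bore no such mark. Since the genes share many 31-base words, values of single Klk1b genes are still uncertain in how reads were shared, and the family sum is given beside them.

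The promoters of these genes are close copies too, and are shown because most of the genes were high in the same libraries. The RefSeq promoter table (GRCm38.p6) matched 8 of the 9 genes; Spink8 had no entry. The 300-base windows of 7 of the 8 hold TTTAAA, which is its own reverse complement, as do 6 of 6 other Klk1b coding genes and 13.2% of the 32851 windows in the table. The exception is Klk1. The motif TATAAA was in 0 of the 8 windows on either strand, against 13.6% of all windows, and AGAACA was in 2 (Klk1b3 and Klk1b24), against 19.0%. The stretches below run from 45 bases before to 4 bases after TTTAAA, which is in capitals, on the plus strand of chromosome 7, with Klk1b22 at chr7:44112588-44112642.
Klk1b22: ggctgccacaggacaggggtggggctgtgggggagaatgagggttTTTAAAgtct
Klk1b9: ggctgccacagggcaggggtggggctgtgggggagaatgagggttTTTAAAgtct
Klk1b4: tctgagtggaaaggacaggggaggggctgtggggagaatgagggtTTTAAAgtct
Klk1b3: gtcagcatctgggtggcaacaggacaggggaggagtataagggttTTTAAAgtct
Klk1b1: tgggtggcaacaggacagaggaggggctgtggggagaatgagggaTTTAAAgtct
Klk1b8: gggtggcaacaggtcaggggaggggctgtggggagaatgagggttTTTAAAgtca
Klk1b24: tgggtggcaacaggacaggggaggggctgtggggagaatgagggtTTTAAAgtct
Klk1b5: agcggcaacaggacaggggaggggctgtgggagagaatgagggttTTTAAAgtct
Klk1b5, which reached at most 0.0641 CPM in any library, carried the motif like the genes that were expressed. A match to these letters is a description of the window and says nothing of a factor.

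Spink8 was the most abundant of the 9 genes in every group. In graft its level was 2815, 5111, 3291 and 3801 CPM, on TMM-adjusted library sizes. All 4 graft libraries lay above the other 28, which spanned 624.1 to 1465 CPM with a median of 1012. The graft mean of 3754 ± 989.8 CPM (SD, n = 4 libraries) was 3.61 times the mean of the other 7 experiments and 2.80 times that of the highest of them, mouse-host experiment 1. Among those 7, experiment means ran from 797.6 CPM in mouse-host experiment 2 to 1339 CPM in mouse-host experiment 1. Their order depended on the scale. TPM is scaled for transcript length and library total and has no TMM adjustment. In TPM, rat-host libraries (3921 to 4261) lay above every control (at most 2437) and mouse-host library (at most 3804). The rat host had the tightest libraries, at 1185, 1142, 1208 and 1268 CPM, a coefficient of variation of 4.36%, against 7.45% to 31.7% in the other experiments.

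**Figure D1:**
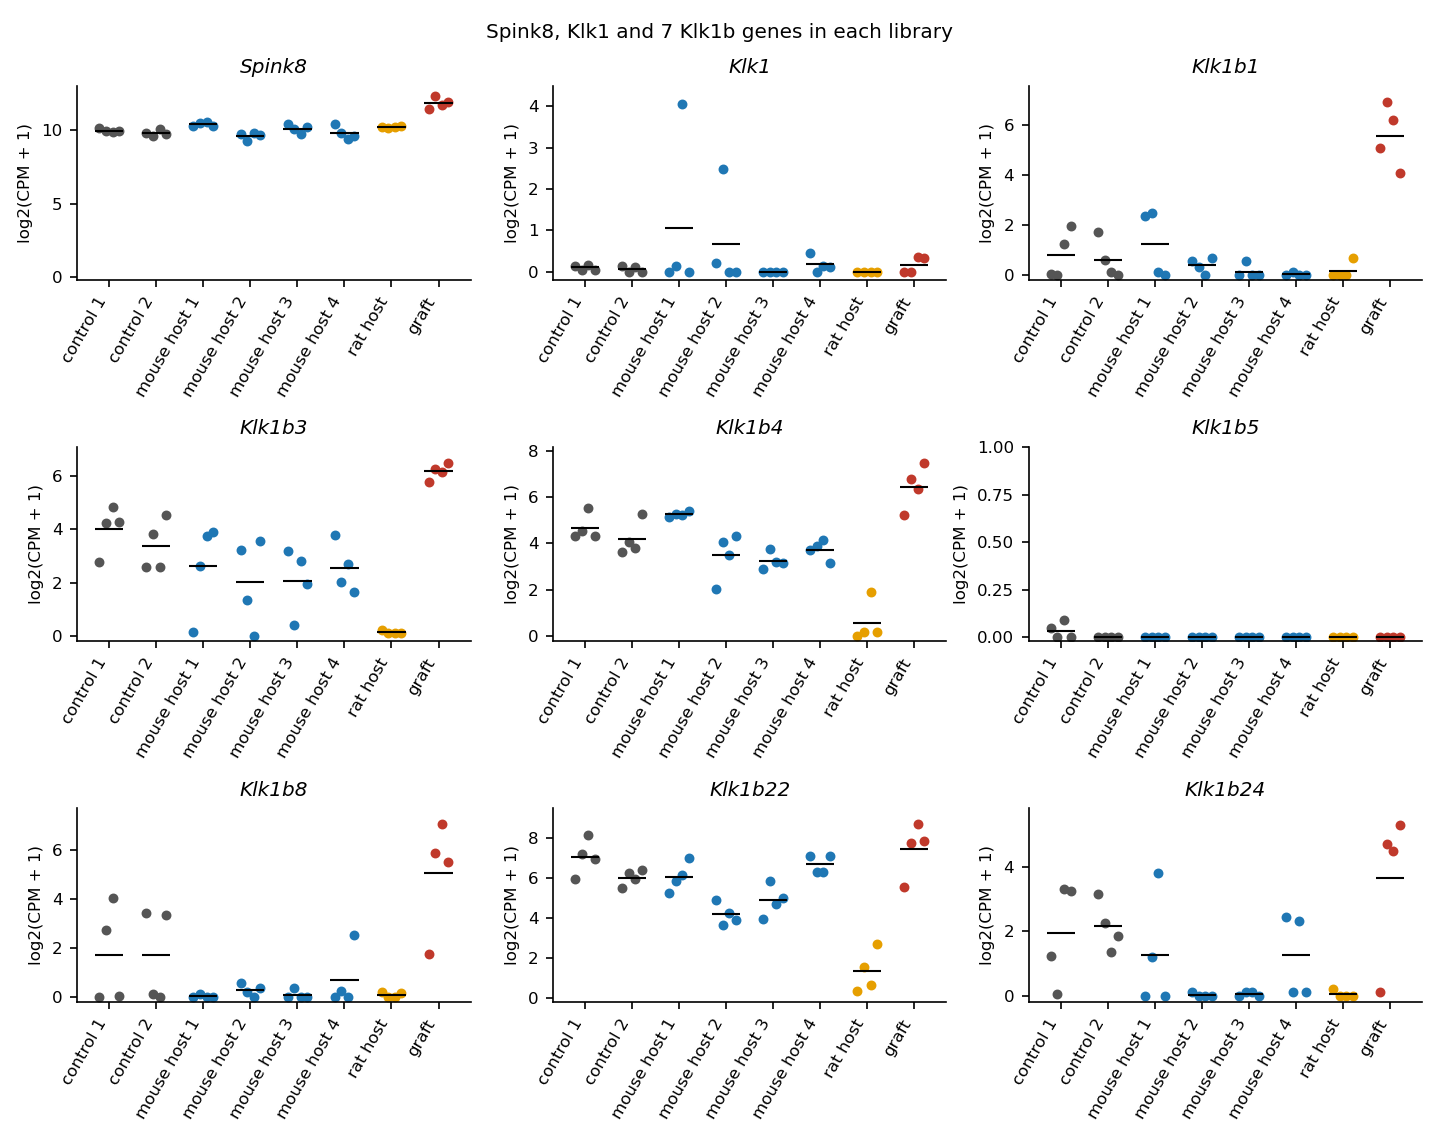
Level of each of the 9 genes in each library on a log2(CPM + 1) scale, with a black bar at the mean of the 4 libraries of an experiment (grey control, blue mouse host, orange rat host, red graft; panels have their own vertical ranges). All 4 graft points lie above all others for Spink8, Klk1b1 and Klk1b3, the rat host is lowest for Klk1b22 and Klk1b4, and Klk1 and Klk1b5 are near 0 apart from 2 mouse-host libraries with Klk1.

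Salmon gave nearly all Spink8 reads to a pair of transcripts with different coding ends. The longer one (768 bases) has an extra exon of 43 bases at chr9:109824509-109824551 (GRCm38, plus strand), and the 2 transcripts end at different stop codons, after 315 and 285 coding bases. The ends are shown from 30 bases before the point where they part, without the stop codon, and the extra exon is in capitals.
Spink8 long: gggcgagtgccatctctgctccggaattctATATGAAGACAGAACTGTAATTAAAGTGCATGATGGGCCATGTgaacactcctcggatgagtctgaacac
Spink8 short: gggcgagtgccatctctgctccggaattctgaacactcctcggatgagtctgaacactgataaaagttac
The longer transcript (ENSMUST00000198988.5) took 69.3% ± 1.98 (SD, n = 4) of Spink8 reads in graft and 65.9% to 74.2% on average in the control and mouse-host experiments. In the rat host it took 59.9% ± 1.35 and the shorter one (ENSMUST00000118732.4) 40.0% ± 1.34. The rat-host libraries gave the shorter transcript 38.8% to 41.3%, above every other library but the highest of mouse-host experiment 2, at 40.5%. These shares are Salmon's estimates, and the difference was not tested.

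Of the 2 genes for subunits of the salivary complex, Klk1b3 was at 54.6, 76.7, 69.9 and 88.1 CPM in graft. The other 28 libraries spanned 0 to 27.5 CPM, with a median of 5.34, and the highest was control experiment 1 replicate 3. The groups did not overlap, and the ratio of the graft mean to the mean of the other 7 experiments was 9.75. Klk1b4 was at 36.1, 109.8, 80.2 and 174.6 CPM in graft and at 0 to 45.7 CPM elsewhere, with a median of 13.5. Here 5 of the other 28 libraries lay above graft replicate 1, and the ratio of means was 5.98. Klk1b3 had the steadiest graft libraries of the 6 Klk1b genes among the 9 that were read there, with a coefficient of variation of 19.4%, against 58.0% for Klk1b4 and 66.6% for Klk1b22.

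Klk1b22 was the most abundant of the 7 Klk1b genes in every group on the length-scaled TPM scale. Its graft level was 45.6, 219.7, 420.2 and 234.0 CPM, against 0.292 to 289.3 CPM (median 57.2) in the other 28 libraries. The groups overlapped: 15 of the 28 lay above graft replicate 1, and graft replicate 3 alone lay above all of them. In control experiment 1 the gene was at 61.1, 149.3, 289.3 and 123.1 CPM and in control experiment 2 at 45.2, 74.8, 61.0 and 82.7 CPM. The graft mean was 1.48 times that of control experiment 1, the smallest such ratio among these 6 genes.

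The remaining Klk1b genes, whose individual roles are less known, were low or patchy outside graft. Klk1b1 was at 32.7, 120.6, 73.2 and 15.8 CPM in graft and at 0 to 4.53 CPM elsewhere, where 15 of 28 libraries had a read. Klk1b8 was at 2.39, 57.1, 131.4 and 45.1 CPM in graft. Elsewhere it was at 0 to 15.5 CPM, and the libraries above graft replicate 1 were 4 controls, at 15.5, 9.67, 9.15 and 5.60 CPM, and replicate 4 of mouse-host experiment 4, at 4.85 CPM. Klk1b24 was at 0.0796, 25.3, 21.6 and 38.8 CPM in graft and at 0 to 13.01 CPM elsewhere, so that graft replicate 1 was within the range of the other experiments and the other 3 graft libraries were above it. The ratio of the graft mean to the mean of the other 7 experiments was 92.0 for Klk1b1, 35.4 for Klk1b8 and 10.3 for Klk1b24.

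Klk1, the kinin-releasing gene, did not share this pattern. It had 6 reads over the 4 graft libraries (0, 0, 0.277 and 0.264 CPM) and none in the rat host. Of its 252 reads outside graft, 174 lay in replicate 3 of mouse-host experiment 1 (15.7 CPM) and 58 in replicate 2 of mouse-host experiment 2 (4.63 CPM). In no other library did it pass 0.365 CPM. Klk1b5, the copy next to Klk1 in the cluster and the most like it in sequence, had 3 reads in control experiment 1 and 0 elsewhere. A count of 0 allows up to 3 reads, or 0.0944 to 0.104 CPM in a library of control experiment 1, and the gene was below that in all 4.

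Of the 9 genes, 3 (Spink8, Klk1b1 and Klk1b3) had all 4 graft libraries above the other 28, against 0.198% of the 13135 genes that passed the expression filter over all libraries. Of the 9, 7 passed that filter, and since the graft levels chose the genes, nothing is read from the count. Leaving out a graft library can only keep or raise that count. Without graft replicate 1 it was 6 of 9, with Klk1b4, Klk1b8 and Klk1b24 added. The share over all genes without that library is not given, so nothing is read from this count either. That library had the lowest graft value of 6 genes (Spink8, Klk1b3, Klk1b4, Klk1b8, Klk1b22 and Klk1b24) and the highest graft sum of fibroblast markers, at 415.2 CPM. Its macrophage markers (7 genes) summed to 29.5 CPM, against 0.0880 to 5.94 CPM in the other 3, while its depth was within theirs. The part of other cells in its Klk1b levels was not tested.

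The sum over Klk1 and all Klk1b genes and pseudogenes, which sharing of reads between copies leaves unchanged, was 507.5, 2320, 1968 and 2380 CPM in graft. It was 320.7, 413.5, 865.2 and 375.1 CPM in control experiment 1 and 242.1, 236.2, 224.1 and 505.7 CPM in control experiment 2. It was 205.2 to 335.5 CPM in mouse-host experiment 1, 56.8 to 128.4 in experiment 2, 61.8 to 131.7 in experiment 3 and 233.9 to 330.6 in experiment 4. In the rat host it was 2.12, 4.45, 12.2 and 22.9 CPM, below every other library. The order was thus graft, controls, mouse host and rat host, with graft replicate 1 inside the control range and the control and mouse-host ranges overlapping.

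**Figure D2:**
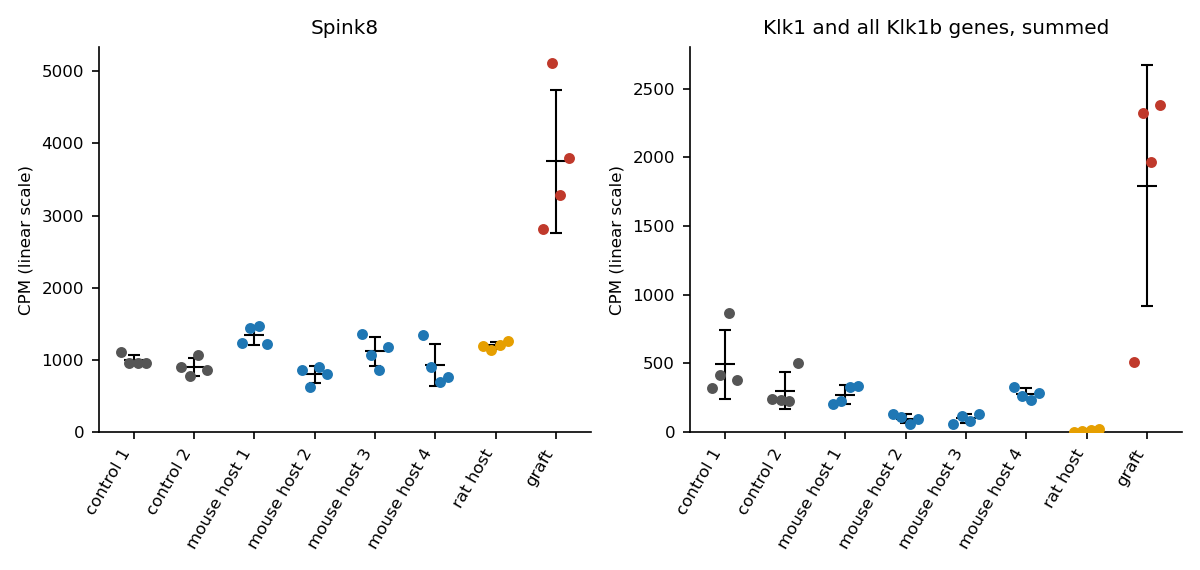
Spink8 (left) and the sum of Klk1 and all Klk1b genes (right) in CPM on linear axes from 0, with points for libraries and bars for mean ± SD over the 4 libraries of an experiment. Spink8 lies between 624.1 and 1465 CPM outside graft, whereas the kallikrein sum spans from 2.12 CPM in the rat host to 865.2 CPM in the controls, and graft replicate 1 (507.5 CPM) stands far below the other 3 graft libraries.

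The make-up of that sum was compared in TPM, which is scaled for transcript length. In graft the mean level was 778.4 TPM for Klk1b9, 483.8 for Klk1b26 and 363.3 for Klk1b22, followed by Klk1b4 (161.8), Klk1b3 (108.2), Klk1b21 (102.1), Klk1b1 (95.7), Klk1b8 (92.7) and Klk1b24 (31.8). In controls Klk1b22 led, at 191.1 TPM, ahead of Klk1b9 (129.3) and Klk1b26 (106.5), and in mouse hosts it led at 105.2 TPM. Spink8 exceeded all of them, at 2210 TPM in controls, 2603 in mouse hosts, 4092 in the rat host and 8158 in graft. Klk1b genes outside the 9, mainly Klk1b9, Klk1b26 and Klk1b21, held 51.2% to 68.9% of the family's TPM in graft libraries and 31.4% to 67.3% in the others. Klk1b9 was at 125.6, 916.2, 457.6 and 525.4 CPM in graft and at 0.219 to 193.4 CPM elsewhere. Klk1b26 was at 170.8, 646.0, 613.2 and 1114 CPM in graft and at 0.565 to 208.3 CPM elsewhere.

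**Figure D3:**
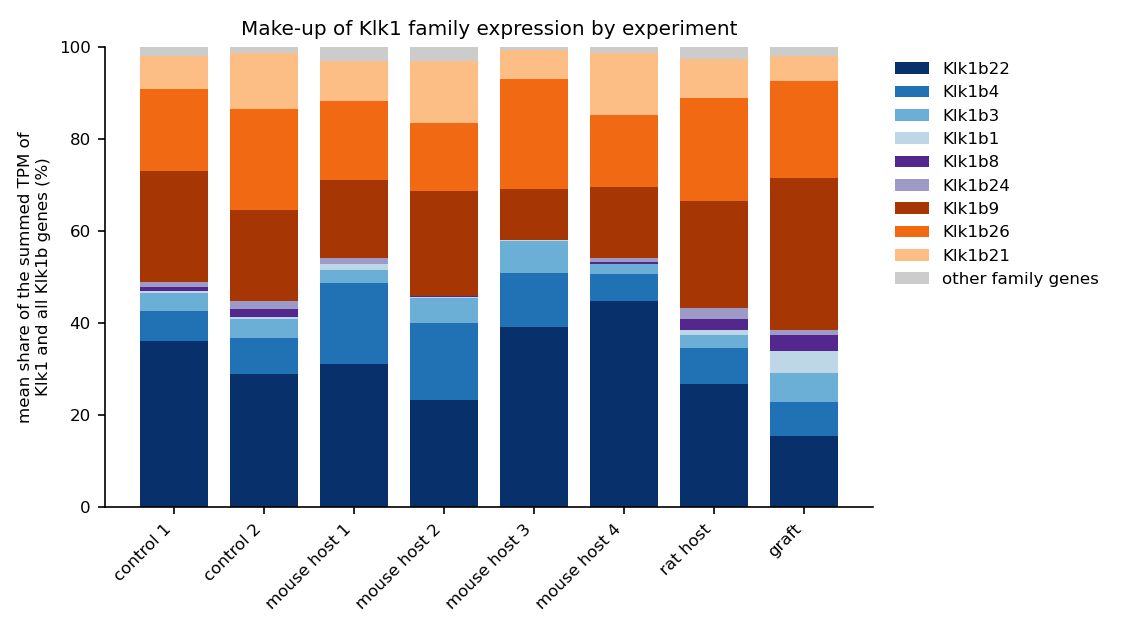
Mean share of each gene in the summed TPM of Klk1 and all Klk1b genes, by experiment (stacked bars, n = 4 libraries each; blues and purples are among the 9 genes, oranges are not). Klk1b22, Klk1b9 and Klk1b26 make up most of the sum in every experiment, and the mean share of Klk1b1 is 4.78% in graft and at most 1.23% in the other experiments, while that of Klk1b8 is 3.51% in graft and 2.59% in the rat host, where it rests on 4 reads.

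**Figure D4:**
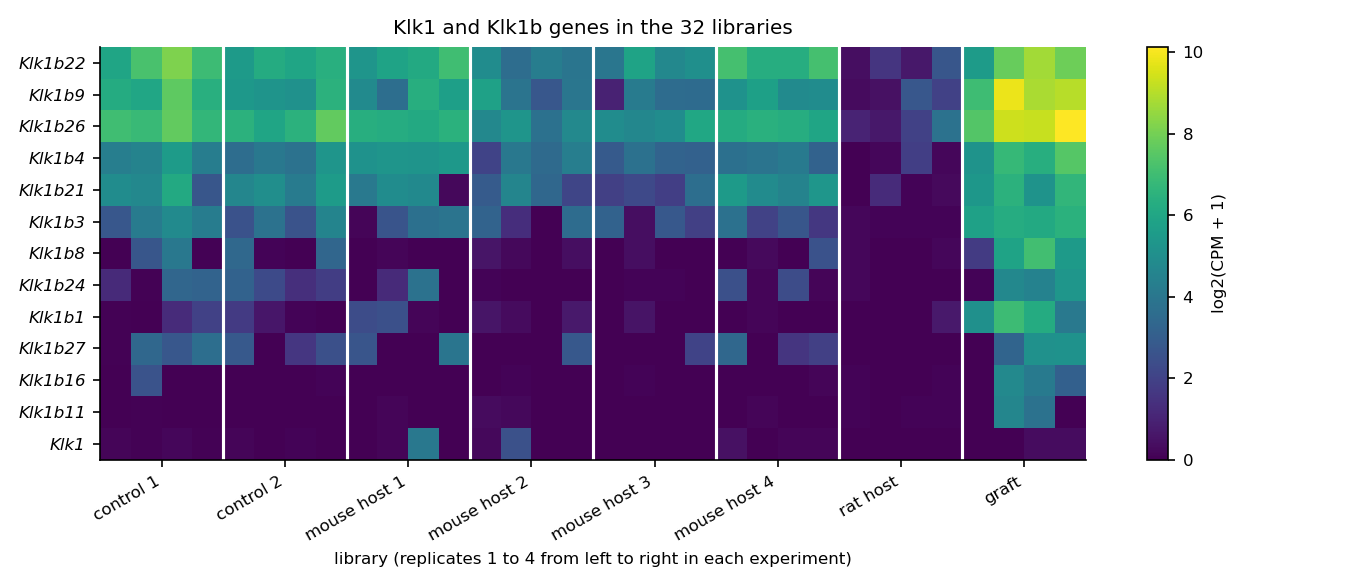
Heat map of log2(CPM + 1) of 13 Klk1 family genes in the 32 libraries, replicates 1 to 4 from left to right within each experiment. Klk1b22, Klk1b9 and Klk1b26 are read in all 32 libraries, and Klk1b4 and Klk1b21 in all but rat-host replicate 1. Klk1b8, Klk1b24, Klk1b1 and Klk1b27 are at 0 in some libraries of an experiment and read in others.

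Mouse-host cells were compared with control cells to ask whether ESC-derived parathyroid cells carry the same transcripts as native ones, a contrast that did not choose the genes. None of the 9 genes passed the test: 8 were tested and 0 were called at an adjusted p below 0.05 (edgeR quasi-likelihood test on 8 experiment sums, Benjamini-Hochberg over 15698 genes), against 0% of all genes, with 691 genes at an unadjusted p below 0.05. DESeq2 called 135 genes and 0 of the 9. Spink8 was at 949.1 ± 68.2 CPM in controls (SD, n = 2 experiments) and 1044 ± 236.3 CPM in mouse hosts (n = 4), a log2 fold change of 0.14 (SE 0.20). Klk1b22 was at 110.8 ± 63.5 against 58.0 ± 40.6 CPM, a log2 fold change of -0.93 (SE 0.64). Klk1b3 was at 14.3 ± 4.17 against 5.80 ± 1.52 CPM, with a log2 fold change of -1.32 (SE 0.38, adjusted p = 0.892, edgeR), and Klk1b4 had a log2 fold change of -0.38 (SE 0.56). Klk1b8, with 877 reads in controls and 73 in mouse hosts, had the lowest estimate, at -3.62 (SE 1.14, adjusted p = 0.892, edgeR). The family sum had a log2 fold change of -1.09 (SE 0.47, adjusted p = 0.893, edgeR). Of the 8 estimates, those of the 6 Klk1b genes were below 0 and those of Spink8 and Klk1 above it, with a median of -0.72 against 0.00 over all genes.

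Rat-host cells were compared with mouse-host cells to describe the same ESC-derived cells in another host species. The rat host enters this fit as 1 experiment sum, so the spread comes from the 2 control and 4 mouse-host experiments and the rat-host experiment is assumed to vary like them. The kallikreins were at or near their lowest levels there, while Spink8 was not. Klk1b3 fell: it had 5 reads in the 4 rat-host libraries (0.146, 0.0707, 0.0734 and 0.0675 CPM) and 1062 in the 16 mouse-host libraries (0 to 13.7 CPM, median 5.34). Its log2 fold change was -5.95 (SE 0.80, adjusted p = 0.0318, edgeR quasi-likelihood test), and it was the only one of 8 tested genes to be called, against 0.643% of all genes (0.427% lower and 0.217% higher). The ranges still overlapped, since mouse-host experiment 2 replicate 3 had no Klk1b3 read. Leaving out a whole experiment ended the call in 3 cases, with an edgeR adjusted p of 0.0821 for control experiment 1, 0.0670 for control experiment 2 and 0.0649 for mouse-host experiment 4, and it held in the other 35 fits that left out a library or an experiment.

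Klk1b22 was at 0.292, 1.98, 0.587 and 5.53 CPM in the 4 rat-host libraries, against 11.4 to 138.0 CPM (median 47.4) in the 16 mouse-host libraries. Klk1b4 was at 0, 0.141, 2.72 and 0.135 CPM against 3.14 to 40.6 CPM (median 13.2). For both genes, and for the family sum, every rat-host library lay below every mouse-host library, against 1.64% of 13135 genes. Their log2 fold changes were -4.72 (SE 1.20) for Klk1b22 and -4.55 (SE 1.03) for Klk1b4, and neither passed the test over experiments (adjusted p = 0.155 and 0.117, edgeR). The family sum had a log2 fold change of -4.10 (SE 0.84, adjusted p = 0.0944, edgeR). DESeq2 called 3 of the 9 genes lower, and 873 genes in all, against 101 in the edgeR fit on experiment sums. The fits on single libraries also called 3, and 776 genes in all, or 820 with the replicate block. They take the 4 libraries of the lone rat-host experiment as replicates of the host. Nothing is therefore read from these counts. Klk1b24 had 2 reads in the rat host against 254 in mouse hosts, of which 144 lay in experiment 1 replicate 3 alone. Klk1b1 and Klk1b8 had 9 and 4 reads in the 4 rat-host libraries against 107 and 73 in the 16 mouse-host libraries. Scaled to library size, these are ratios of 0.279 and 0.182. In mouse hosts, 38 and 46 of the Klk1b1 reads lay in experiment 1 replicates 1 and 2. Of the Klk1b8 reads there, 55 lay in experiment 4 replicate 4. Spink8 was at 1201 ± 52.3 CPM in the rat host (SD, n = 4 libraries), with a log2 fold change of 0.25 (SE 0.26, adjusted p = 0.775, edgeR).

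**Figure D5:**
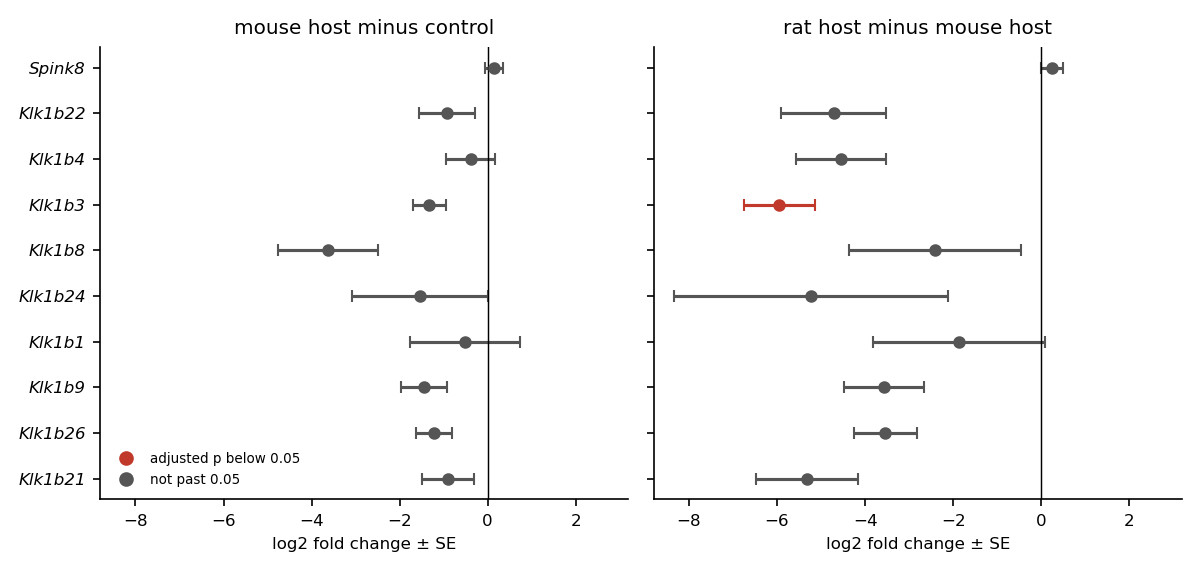
Log2 fold change ± SE of Spink8, 6 Klk1b genes among the 9 and 3 others in mouse host against control (left) and rat host against mouse host (right), from edgeR on experiment sums; red marks an adjusted p below 0.05. Spink8 lies near 0 on both sides, and the Klk1b estimates in the rat host lie between -1.87 and -5.95 with Klk1b3 alone past the threshold.

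Other genes moved in the rat host as well. In the same fit, with the same assumption for the lone rat-host experiment, Chga, which encodes chromogranin A, and Pth fell there, by 0.78 and 1.00 on the log2 scale (adjusted p = 0.0226 and 0.0354, edgeR), which are smaller differences than the -5.95 of Klk1b3. Host species, neonatal age and the single experiment cannot be told apart. Outside the 9 lie 6 coding Klk1b genes and 10 pseudogenes, so the 7 tested in this fit include a pseudogene. Of the Klk1b genes outside the 9, 7 were tested and 0 called, and Klk1b26 was the median of the 7 with a log2 fold change of -3.54 (SE 0.72, adjusted p = 0.0893, edgeR), against -0.03 over all genes.

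Among the 4 mouse-host experiments, which share age and host while experiment 4 alone is labelled male, Klk1b22 and the family sum differed from experiment to experiment. Klk1b22 was at 37.7, 57.0, 70.3 and 129.2 CPM in experiment 1, 29.3, 11.4, 18.4 and 14.1 in experiment 2, 14.5, 57.4, 25.5 and 31.6 in experiment 3, and 138.0, 77.3, 77.9 and 137.9 in experiment 4. The 4 libraries of experiment 4 were above all of experiments 2 and 3. Klk1b22 differed between the experiments (edgeR quasi-likelihood F-test on 16 libraries, adjusted p = 0.0171 over 12195 genes), a call that held in all 16 fits with 1 library left out (adjusted p up to 0.0432). It was the only one of the 5 genes tested that was called, against 1.35% of all genes. The family sum also differed between the experiments (adjusted p = 0.0031, edgeR), as did Klk1b26 (adjusted p = 0.0320, edgeR), though the latter call was lost in 8 of the 16 fits with 1 library left out.

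Klk1b24, Klk1b9, Klk1b21 and Klk1b27 were not called (adjusted p = 0.208, 0.447, 0.432 and 0.967, edgeR). Klk1b4 was highest in mouse-host experiment 1, at 34.4 to 40.6 CPM, above the 3.14 to 19.1 CPM of the other 3, but was not called (adjusted p = 0.113, edgeR). Klk1b3 showed no such order (adjusted p = 0.997, edgeR): its libraries spanned from 0.108 to 13.7 CPM within experiment 1 alone. Spink8 was higher in experiment 1 (1218 to 1465 CPM) than in experiment 2 (624.1 to 899.8 CPM), with an adjusted p of 0.138 (edgeR) over the 4 experiments. That p was 0.0207 without experiment 4 replicate 1, whose 1344 CPM stood apart from the 687.1 to 896.2 CPM of its fellows. With DESeq2 the adjusted p for Spink8 was 0.006.

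The control experiments differ in labelled sex and age together. None of 7 tested genes was called between them (edgeR quasi-likelihood test on 8 libraries, with 622 genes at an unadjusted p below 0.05), against 0.0173% of 11544 genes. DESeq2 called 125 genes and 0 of the 9. Klk1b22 was lower in experiment 2 in value, with a log2 fold change of -1.23 (SE 0.40, adjusted p = 0.691, edgeR). Spink8 had one of -0.13 (SE 0.11) and the family sum one of -0.70 (SE 0.35). Replicate 4 of experiment 2 stood apart with a family sum of 505.7 CPM.

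Genes of the same pathways, from lists of known roles, were read beside them. The other 11 Spink genes listed summed to at most 1.61 CPM in any library, and to 0 in graft. Of 12 other kallikrein-related peptidases, 1 reached 8 CPM in any library: Klk8, a secreted protease studied in brain and skin, at 9.32 to 75.4 CPM in graft and 1.22 to 69.4 CPM elsewhere, with no call in the tests of the arms, the mouse-host experiments or the controls. Membrane-anchored epithelial proteases were present throughout. Hpn (hepsin) was at 95.7 to 440.0 CPM over the 32 libraries, Prss8 (prostasin) at 42.8 to 165.4 CPM and St14 (matriptase) at 7.89 to 188.8 CPM. Their Kunitz-type inhibitors Spint1 and Spint2 were at 91.5 to 296.8 CPM and 870.3 to 1546 CPM. Of 8 genes of that list tested, none was called in mouse host against control. Their median log2 fold change in rat host against mouse host was -0.52, against -0.03 over all genes. Among the mouse-host experiments 2 of the 8 were called, against 1.35% of all genes: Hpn and Wfdc2 (adjusted p = 0.0337 and 0.0326, edgeR). Wfdc2 was higher in experiment 4 (263.4 to 394.4 CPM) than in the other 3 (135.0 to 254.1 CPM), and Hpn was highest in experiment 1 (234.2 to 440.0 CPM).

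Genes for the substrates and receptors of the kinin branch were hardly read in these cells. The kininogen genes Kng1 and Kng2 had at most 0.0341 CPM in any library, and the bradykinin receptor genes Bdkrb1 and Bdkrb2 at most 0.160 CPM. Egf, in contrast, was present in all libraries, at 54.2 to 142.0 CPM in graft and 52.3 to 230.0 CPM elsewhere, and the neurotrophin receptor gene Ngfr at 38.2 to 59.2 CPM in graft and 1.86 to 125.4 CPM elsewhere. Of the substrate and partner list, 8 genes were tested between arms and 4 within them and none was called, and the median log2 fold change was -0.25 in mouse host against control and 0.39 in rat host against mouse host, against 0.00 and -0.03 over all genes. In the kinin pathway list (13 genes, 5 tested) none was called either, but Cpn1, which encodes a kinin-cleaving carboxypeptidase subunit, reached 10.4 to 29.4 CPM in rat-host libraries and had no read in graft. Serping1, which encodes the C1 inhibitor, was high in single libraries, at 309.9 CPM in control experiment 2 replicate 3, 310.4 CPM in mouse-host experiment 2 replicate 4 and 58.6 CPM in graft replicate 1, which are the libraries with fibroblast marker sums of 3249, 2399 and 415.2 CPM. It was at most 0.219 CPM in the other 5 experiments, and the part of fibroblasts in it was not tested.

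Markers of the salivary gland, where Klk1b genes are best known, were read as well. Of 16 submandibular gland markers in the tables, 10 had no read in any library, among them Smgc, Bpifa2, Car6, Pip and Dcpp1. The summed level was 136.4, 333.0, 382.7 and 712.9 CPM in graft and 107.1 to 460.1 CPM elsewhere. Egf and the water channel gene Aqp5 are on that list and were read in all libraries. Aqp5 was at 80.7 to 658.8 CPM in graft and 0.810 to 10.7 CPM in the rat host, a log2 fold change from mouse to rat host of -4.56 (SE 0.95, adjusted p = 0.0964, edgeR). It differed among the mouse-host experiments (adjusted p = 0.0052, edgeR), with its highest levels in experiment 3 (176.3 to 313.3 CPM), where Klk1b22 was low. Of 16 kidney tubule markers, which summed to 330.2 to 540.4 CPM in graft, Lrp2 was at 330.2 to 540.4 CPM in graft and 96.0 to 2286 CPM elsewhere, and Slc5a2 was at 0 in graft. Lrp2 differed among the mouse-host experiments (adjusted p = 0.0229, edgeR), at 687.8 to 2286 CPM in experiment 1 and 194.6 to 729.9 CPM in the other 3. Of 10 androgen-responsive genes tested between arms none was called in mouse host against control, and 1 was called in the rat host, against the 0% and 0.643% of all genes given above. That gene, Tsc22d3, ranged from 197.9 to 364.0 CPM over the rat-host libraries, against 53.6 to 162.3 CPM in mouse hosts, a log2 fold change of 1.39 (SE 0.23, adjusted p = 0.0466, edgeR, with the lone rat-host experiment assumed to vary like the others). Of 6 tested among the mouse-host experiments 1 was called, against 1.35% of all genes: Sgk1 (adjusted p = 0.0347, edgeR), at 69.9 to 196.1 CPM in experiment 4, labelled male, and 13.7 to 74.2 CPM in the 3 labelled female. Of 12 parathyroid genes, Gcm2 and Pax9 also differed among those experiments (adjusted p = 0.0067 and 0.0082, edgeR), both highest in experiment 3 by mean (1342 and 275.5 CPM).

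Genes averaging at least 8 CPM in graft were ranked by how closely their log2(CPM + 1) followed a gene over the 32 libraries. The 9 genes themselves and symbols of the Gm or Rik kind were left out, which gave 8281 genes. The ranks therefore do not show how closely the 9 genes follow one another. Spink8 was followed most closely by Spcs2 (Pearson r = 0.82) and Spcs1 (r = 0.799), subunits of the signal peptidase of the secretory pathway. Cox5a (0.770), Nme1 (0.767), Tceal9 (0.762) and Ap2s1 (0.759) came next. Spcs1 was at 622.9 CPM or more in graft and at most 563.9 CPM elsewhere. For Klk1 the highest values were 0.515 (Eml2), 0.498 (Abhd16a), 0.495 (Eif3b), 0.479 (Nthl1), 0.476 (Zfp219) and 0.464 (Diablo), with most Klk1 reads in 2 libraries. Klk1b22, taken after its values were seen, was followed by Klk1b26 (0.903), the crystallin gene Cryba2 (0.887), Serinc3 (0.852), Klk1b9 (0.850), Gfra4 (0.819) and Pth (0.817). These correlations carry no test, since the libraries share experiments and depth and similar Klk1b genes can share reads. Spink8 was chosen on its graft level and the ranked genes were filtered on theirs, so genes also high in graft are favoured. A link between Spink8 and the signal peptidase was not tested.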

How the data were processed

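Bulk SMART-Seq HT libraries of picked cells were analysed from transcript tables. Per the submitters' processing notes, Salmon and GRCm39 were used; which annotation and Salmon version were used is not given in the sources used here. Each deposited table holds estimated counts, which the authors obtained with Salmon, and TPM, scaled by the authors for transcript length and library total. Estimated counts were summed by gene (115685 of 116747 transcript IDs matched GENCODE M21; the 1062 others held 0.493% of reads) and rounded. TPM served to compare levels between genes.

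edgeR 4.0.16 (R 4.3.3) quasi-likelihood tests with TMM scaling and Benjamini-Hochberg adjustment were fitted over all genes passing edgeR's expression filter: on 8 experiment sums between arms (rat host and graft being 1 sum each, with the spread taken from the other arms), and on single libraries within arms. CPM uses TMM-adjusted sizes. The call threshold was an adjusted p of 0.05. DESeq2 1.42.0, limma 3.58.1 on log2(TPM + 1), other filters and scalings, and fits leaving out each library or experiment were alternatives. Fits were also run on simulated counts that gave every gene the same spread beyond counting error. Klk1b genes had coefficients of variation of up to 200% within an experiment. Those runs therefore do not show how the tests behave for these genes. Sequences were compared with MAFFT 7.526. Intervals and the floor of 3 reads cover counting error only, since no molecular identifiers were used. No replicates were duplicates: over 48 pairs of an experiment, the lowest chi-square per degree of freedom was 41.

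The genes and the lists were chosen with earlier results of these data known. All 9 genes are accounted for. Of the list genes that reached 8 CPM in a library, those called by a test and a selection of the others are named, with some absent partners, and the rest are given as counts. The genes most like Spink8 and Klk1 are the 6 with the highest correlation among those averaging at least 8 CPM in graft. The 9 genes and symbols of the Gm or Rik kind were left out of that ranking. Results for some list genes are not reported here.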

Additional observations from a re-analysis of the deposited data

Results flagged for a closer look

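In groups of 4 libraries, a library was marked where its gap to the nearest of the others, over the group's range on the log2(CPM + 1) scale, passed Dixon's 95% critical value for 4 samples. Of 54 groups of a gene and an experiment examined, 9 had such a library, where chance gives about 1 in 20.

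Spink8 was at 1109 CPM in control experiment 1 replicate 1, against 957.0 to 962.2 CPM in the other 3. Klk1 was at 15.7 CPM in mouse-host experiment 1 replicate 3 and at 4.63 CPM in mouse-host experiment 2 replicate 2, with the other libraries of those experiments at or near 0. Klk1b4 was at 45.7 CPM in control experiment 1 replicate 3, against 18.8 to 21.9 CPM, and at 2.72 CPM in rat-host replicate 3, against 0 to 0.141 CPM. Klk1b8 was at 4.85 CPM in mouse-host experiment 4 replicate 4, against 0 to 0.179 CPM.

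The family sum was at 505.7 CPM in control experiment 2 replicate 4, against 224.1 to 242.1 CPM. In graft replicate 1 the family sum was 507.5 CPM, against 1968 to 2380 CPM, and Klk1b24 was at 0.0796 CPM, against 21.6 to 38.8 CPM. That library held 12490736 reads, within the range of the other graft libraries (11578193 to 14072323), and the part of its fibroblast and macrophage marker reads was not tested.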

How the results depend on the processing

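Of 1202 alternative values for 35 single-gene results, 1166 kept their direction and side of the threshold, 24 gained a call, 11 lost one and 1 changed sign: Spink8 in mouse host against control, at -0.0037 without mouse-host experiment 1 (-0.0037 to 0.256 with a library or experiment left out). Among the 9 genes in rat host against mouse host, 1 was called, against 2 with no expression filter, 3 with DESeq2, 3 on single libraries, 3 with the replicate block, 0 with the family summed to 1 feature and 0 to 2 with a library or experiment left out (0 without control experiment 1, control experiment 2 or mouse-host experiment 4). Among the mouse-host experiments 1 was called, 3 with DESeq2 and 1 to 2 with a library left out (2 without experiment 4 replicate 1). The 3 genes with graft above all other libraries became 1 with the family summed. They became 3 to 6 with a graft library left out (6 without replicate 1), which can only keep or raise the count. With the family summed, Spink8 is the only one of the 9 left, so counts there are at most 1 and are no check on the Klk1b genes. The matching shares over all genes are not given, and nothing is read from these counts.

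Over all genes, graft against mouse host gave 18 calls, 53 with no filter, 1010 with DESeq2, 604 with limma on TPM, 477 on single libraries, 420 with the replicate block and 0 to 77 with a library or experiment left out. Rat host against mouse host gave 101 calls, 173 with no filter, 185 with library size scaling only and 776 on single libraries. It gave 820 with the block, 873 with DESeq2 and 970 with limma on TPM. With a library or experiment left out it gave 12 to 127 (12 without either control experiment). The mouse-host F-test gave 165, 111 with the block, 846 with DESeq2 and 78 to 202 with a library left out (78 without experiment 1 replicate 2). Mouse host against control gave 0, 4 with the block, 9 with limma on TPM, 14 on single libraries and 135 with DESeq2. The controls gave 2, 125 with DESeq2 and 0 with the block or with limma on TPM. The cause was not tested. Replicate numbers did not pair samples: the median correlation of deviations was -0.0064 over 112 same-number pairs and 0.000536 over 336 others. In Klk1b genes with few reads, depth limits what a 0 shows.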
